A study of Mus musculus musculus x Mus musculus castaneus with 12 samples.

Results

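The Nodal signalling and *Foxh1* axis was followed as 9 genes chosen by symbol, of 24346 genes in all, in F1 hybrid mouse ES cells with and without *Kdm6a*. RNA-seq covered 12 samples. Each cell has one BL6 and one *cast* genome, the mother being BL6 in the BC cross and *cast* in the CB cross. Wild-type (wt) cells were male BC, female BC and male CB, with 2 replicates each, and *Kdm6a* KO cells were male BC and male CB, with 3 clones each. The KO clones carry a CRISPR/Cas9 deletion of the single X-linked copy of *Kdm6a*, which encodes an H3K27 demethylase, either in its exons (ΔE1 and ΔE3 in BC, ΔE2.5 and ΔE2.7 in CB) or in its promoter region (ΔP4 in BC, ΔP2.1 in CB). All cells were grown in serum and LIF on mouse fibroblast feeders, which were reduced by plating on gelatin. Each KO sample is 1 clone. ΔE1 and ΔE3 come from 1 editing event and share an off-target deletion of *Sh3kbp1*, *Map3k15* and *Pdha1*. The study reports an actin-GFP transgene in the CB wt line, and its presence in the CB KO clones was not examined here. The study calls the wt replicates of a group clones, and the labels number them only as replicates, so p-values measure the spread between these samples. Between 49975599 and 89070402 fragments were counted per sample.

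In ES cells and the early embryo, Nodal signals through activin receptors together with the coreceptor TDGF1 (Cripto), and the receptors phosphorylate SMAD2 and SMAD3. The SMADs have no strong DNA preference of their own, and FOXH1 brings them to their target genes. Among these targets are the secreted inhibitors *Lefty1* and *Lefty2*, so the pathway limits itself, and the inhibitory SMAD7 acts on the receptors. GDF3 is a related ligand that also uses TDGF1. *Foxh1* is a known KDM6A target, and the question was whether the ligands, the coreceptor, the inhibitors and the SMADs follow it in each clone and cross.

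Reads of 75 bases can be shared between related genes, which matters most for the paralogs *Lefty1* and *Lefty2*. Their coding sequences are each 1107 bases long in GENCODE and were identical at 91.9% of positions without gaps. Of the 75-base windows in the *Lefty1* transcript, 11.2% also occurred in *Lefty2*, and 7.21% of the *Lefty2* windows occurred in *Lefty1*. Reads from such windows cannot be placed uniquely and can be lost at the mapping quality filter. The longest identical run of the coding sequences was 140 bases. For *Tdgf1*, 8.67% of the windows were shared, all with its pseudogene *Tdgf1-ps1*, and the other 6 genes shared none with any annotated transcript. No exon of another gene in the annotation overlapped an exon of the 9 genes.

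*Kdm6a*, the edited gene, was low in each KO clone. The level, as TPM (transcript counts scaled for length and depth) computed from the diploid fragments, was 49.8 and 51.3 in the male BC wt replicates, with ΔE1 at 11.6, ΔE3 at 13.5 and ΔP4 at 0.044. In CB it was 51.0 and 51.7 in wt, with ΔE2.5 at 2.07, ΔE2.7 at 7.28 and ΔP2.1 at 0.036. The counts are per gene and were not split by exon.

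*Foxh1*, on the minus strand of chromosome 15 (chr15:76668225-76669948), was the only one of the 9 genes below both wt replicates of its cross in all 6 KO clones. In BC, it was at 141 and 132 TPM in wt, with ΔE1 at 68.8, ΔE3 at 46.0 and ΔP4 at 75.4 TPM. These clones thus held between 33.8% and 55.3% of the wt mean, and the lowest of them was a clone of the exonic editing event. In CB, it was at 180 and 177 TPM in wt, with ΔE2.5 at 136, ΔE2.7 at 133 and ΔP2.1 at 150 TPM. Here the clones held between 74.4% and 83.8% of the wt mean, and the 3 clones lay close together. Of all genes tested, 2.7% had all 6 clones below both wt replicates and 2.57% had all 6 above.

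The KO effect was tested across all genes with the quasi-likelihood test of edgeR and Benjamini-Hochberg adjustment, and a gene was called when its adjusted p was below 0.05 and it changed 1.5-fold or more. The log2 fold change of *Foxh1* was -1.15 in BC (SE 0.195, adjusted p = 0.277, edgeR), which did not pass. None of the 9 genes was called in BC, where 0.029% of 13805 genes were. DESeq2, the tool of the study, called *Foxh1* alone of the 9 genes in BC with a log2 fold change of -1.16 (adjusted p = 7.43e-05), against 1.88% of the genes it tested. The edgeR test also called *Foxh1* alone when all 12 samples shared the estimate of the spread, with 0.391% of genes called. These BC tests count ΔE1 and ΔE3 as separate samples, although both come from the same editing event. In CB, the log2 fold change of *Foxh1* was -0.28 (SE 0.0763, adjusted p = 0.169, edgeR), a change below 1.5-fold. None of the 9 genes was called in CB by edgeR, which called 0% of 13801 genes there although 2832 had an unadjusted p under 0.05, nor by DESeq2, which called 3.94% of genes.

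When the crosses were fitted jointly, the log2 fold change of *Foxh1* was -0.73 (SE 0.171, adjusted p = 0.25, edgeR). The edgeR test called 0% of 14298 genes in this comparison, with 1443 at an unadjusted p under 0.05, whereas DESeq2 called 0.598% of genes, *Foxh1* again as the only one of the 9. The difference in KO effect between the crosses was tested as an interaction. For *Foxh1* it was 0.86 on the log2 scale (SE 0.234, adjusted p = 0.151, edgeR), a smaller decrease in CB than in BC that edgeR did not call. The edgeR interaction called 0.0629% of genes and none of the 9. DESeq2 called the interaction for *Foxh1* (adjusted p = 0.0291) and for none of the other 8 genes, with 4.04% of genes called.

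**Figure D1:**
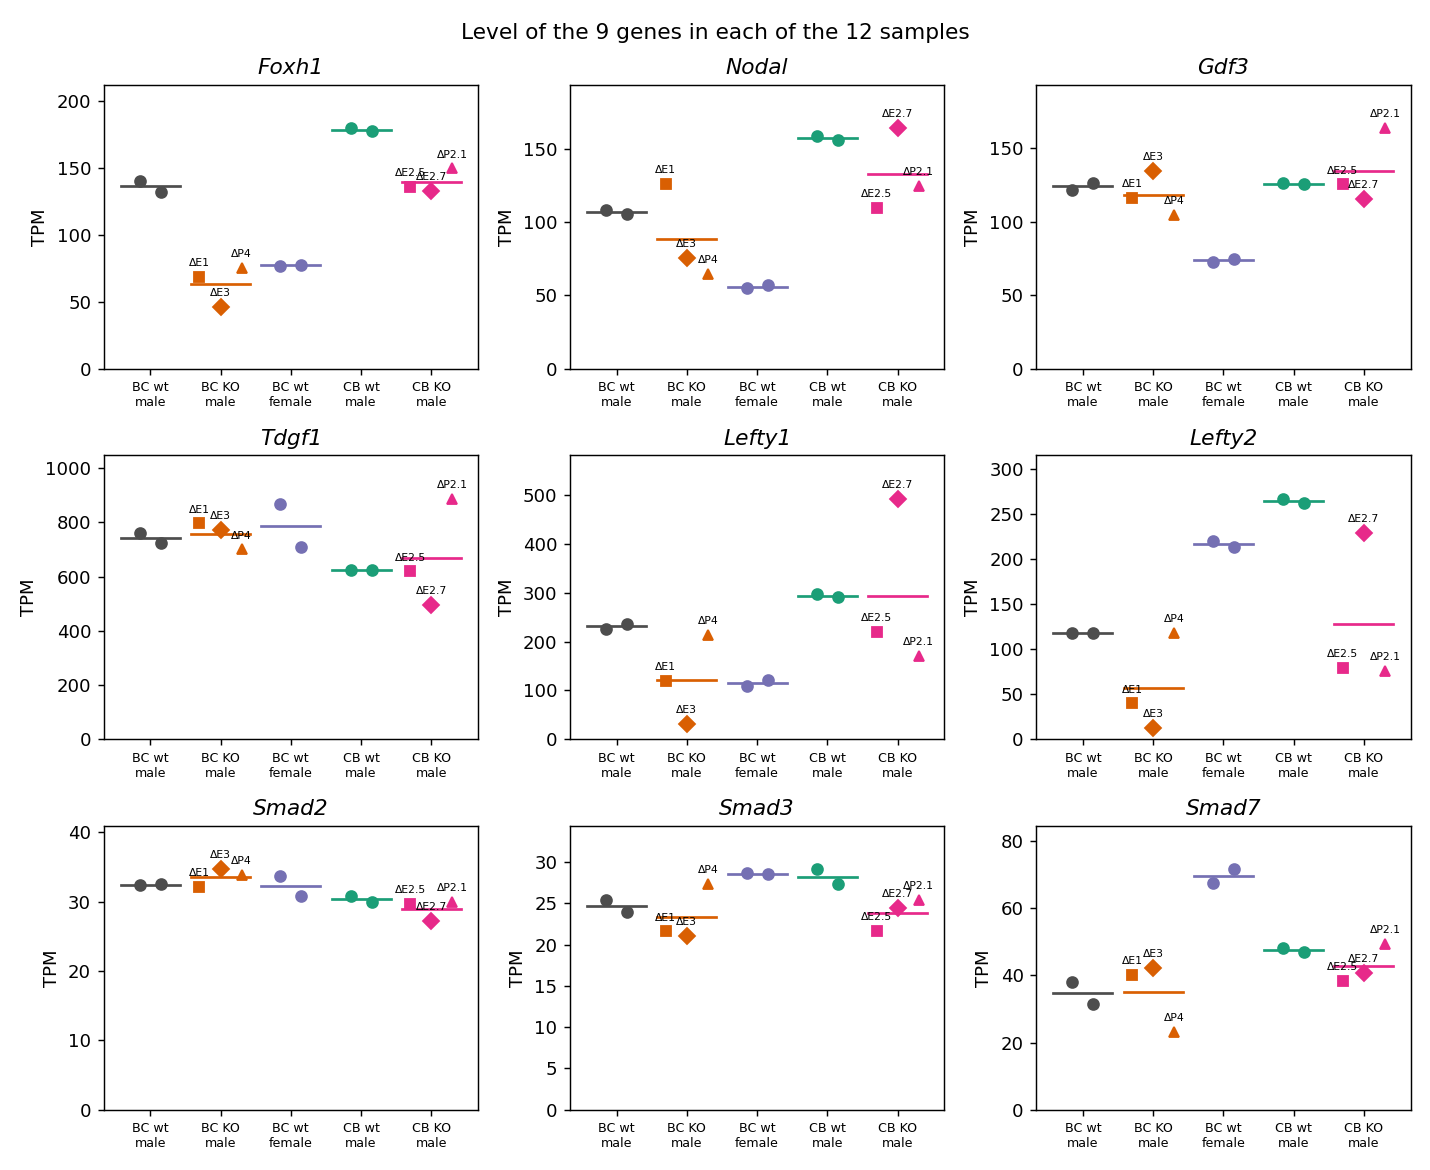
Level of the 9 genes in TPM (vertical axes, linear from 0) in the 5 groups of samples (horizontal axes). Each point is 1 sample, with KO clones named beside their points, and horizontal lines are group means. *Foxh1* sits below both wt points of its cross in all 6 KO clones, whereas *Lefty1* and *Lefty2* range widely among the clones of each cross.

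The ligand *Nodal* (chr10:61417972-61425338, plus strand) did not lie on one side of wt in either cross. It was at 108 and 106 TPM in BC wt, with ΔE1 at 126, ΔE3 at 75.5 and ΔP4 at 64.7 TPM. In CB it was at 159 and 156 TPM in wt, with ΔE2.5 at 110, ΔE2.7 at 164 and ΔP2.1 at 125 TPM. Thus *Nodal* was above both wt replicates in 1 clone of each cross, ΔE1 and ΔE2.7, both of them with less *Foxh1*. The log2 fold changes were -0.30 in BC (SE 0.282, adjusted p = 0.728, edgeR) and -0.17 in CB (SE 0.18, adjusted p = 0.622, edgeR), and -0.24 over both crosses (SE 0.179, adjusted p = 0.681, edgeR).

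*Gdf3* (chr6:122605403-122610087, minus strand) stayed near its wt level in most clones. The BC wt replicates were at 121 and 127 TPM and the BC clones between 104 TPM in ΔP4 and 134 TPM in ΔE3. The CB wt replicates were at 126 and 125 TPM and the CB clones between 115 (ΔE2.7) and 164 TPM (ΔP2.1). The coreceptor *Tdgf1* (chr9:110939603-110946158, minus strand) was the most abundant of the 9 genes on the TPM scale in each sample, except that *Lefty1* was higher in ΔE2.7 when TPM used the union of exons (669 against 540 TPM). It was at 761 and 725 TPM in BC wt and between 700 TPM in ΔP4 and 796 TPM in ΔE1 among the BC clones. In CB it was at 624 TPM in both wt replicates, with ΔE2.5 at 619, ΔE2.7 at 497 and ΔP2.1 at 887 TPM. The clone ΔP2.1 was therefore above both wt replicates for the ligand and for its coreceptor, at 130% of the wt mean for *Gdf3* and 142% for *Tdgf1*.

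The secreted inhibitors varied most among the clones. *Lefty1* (chr1:180935022-180938400, plus strand) was at 226 and 236 TPM in BC wt, with ΔE1 at 119, ΔE3 at 31.8 and ΔP4 at 214 TPM. The exonic clones thus held 51.6% and 13.8% of the wt mean, while the promoter clone held 92.7%. *Lefty2* (chr1:180893108-180899103, plus strand) was at 118 TPM in both BC wt replicates, with ΔE1 at 39.9, ΔE3 at 12.6 and ΔP4 at 118 TPM. It was at 33.9% and 10.7% of wt in the exonic clones and between the wt replicates in ΔP4, a clone that held 55.3% of the wt level of *Foxh1*. The low Lefty levels in BC were thus those of the clones from 1 editing event.

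In CB, *Lefty1* was at 297 and 291 TPM in wt, with ΔE2.5 at 219, ΔE2.7 at 492 and ΔP2.1 at 171 TPM. *Lefty2* was at 267 and 262 TPM in wt, with ΔE2.5 at 79.1, ΔE2.7 at 229 and ΔP2.1 at 75.9 TPM. The low clones were here an exonic and a promoter clone, at 29.9% and 28.7% of the wt mean for *Lefty2*, and the other exonic clone, ΔE2.7, was at 86.6% for *Lefty2* and 168% for *Lefty1*. *Foxh1* differed little among the same 3 clones.

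The tests on the Lefty genes carried the spread among clones. The log2 fold change of *Lefty1* was -0.99 in BC (SE 0.606, adjusted p = 0.587, edgeR) and 0.08 in CB (SE 0.459, adjusted p = 0.93, edgeR), and that of *Lefty2* was -1.13 in BC (SE 0.718, adjusted p = 0.602, edgeR) and -0.96 in CB (SE 0.516, adjusted p = 0.344, edgeR). Over both crosses they were -0.47 for *Lefty1* (SE 0.447, adjusted p = 0.751, edgeR) and -1.05 for *Lefty2* (SE 0.479, adjusted p = 0.499, edgeR). The interaction of cross and KO was 1.06 for *Lefty1* (SE 0.88, adjusted p = 0.563, edgeR). Without ΔE2.7, the log2 fold change of *Lefty1* in CB turned to -0.53.

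Both Lefty genes lie on chromosome 1, whose genes as a whole differed in level between clones. The median log2 change of all tested chromosome 1 genes against wt was 0.43 in ΔE2.5, 0.35 in ΔE2.7 and -0.15 in ΔP2.1, and between 0.02 and 0.15 in the BC clones. With this median subtracted, the log2 change of *Lefty1* was -0.86 in ΔE2.5, 0.39 in ΔE2.7 and -0.63 in ΔP2.1, and that of *Lefty2* was -2.18, -0.56 and -1.66 in the same order. The fitted CB change of *Lefty1* turned from 0.08 to -0.25 when the median of the chromosome was subtracted.

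**Figure D2:**
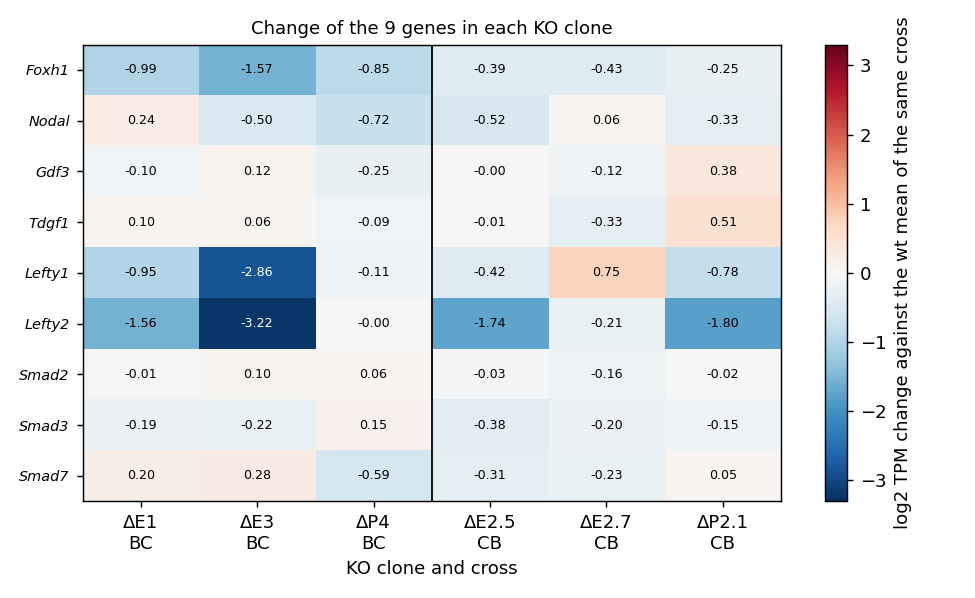
Log2 TPM change of each gene (rows) in each KO clone (columns) against the mean of the wt replicates of the same cross, printed in each cell and coloured on a linear scale from blue (lower) to red (higher). A black line parts BC from CB. The row of *Foxh1* is negative throughout, from -1.57 in ΔE3 to -0.25 in ΔP2.1, and *Lefty2* runs from -3.22 in ΔE3 to -0.00 in ΔP4.

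Of the SMADs that carry the signal, *Smad2* stayed within -0.16 and 0.10 of wt on the log2 scale in each clone. *Smad2*, on chromosome 18, was at 32.4 and 32.5 TPM in BC wt and between 32.1 and 34.7 TPM in the BC clones, and at 30.8 and 29.99 TPM in CB wt and between 27.27 and 30.004 TPM in the CB clones. *Smad3* (chr9:63646767-63757994, minus strand) was at 25.3 and 23.9 TPM in BC wt, with ΔE1 at 21.6, ΔE3 at 21.1 and ΔP4 at 27.3 TPM. In CB, where wt was at 29.1 and 27.3 TPM, it was below both wt replicates in each clone, with ΔE2.5 at 21.7, ΔE2.7 at 24.5 and ΔP2.1 at 25.4 TPM. The inhibitory *Smad7*, also on chromosome 18, was at 38.0 and 31.5 TPM in BC wt, with ΔE1 at 40.1, ΔE3 at 42.2 and ΔP4 at 23.1 TPM. It was at 48.1 and 47.0 TPM in CB wt and between 38.2 TPM in ΔE2.5 and 49.4 TPM in ΔP2.1 in the CB clones.

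Counted by cross, 2 of the 9 genes, *Foxh1* and *Lefty1*, had all 3 BC clones below both wt replicates, where 10.9% of all tested genes did. In CB there were 3, *Foxh1*, *Lefty2* and *Smad3*, where 32.3% of genes did. None of the 9 had all clones of a cross above wt, against 20.9% of genes in BC and 14.7% in CB. With 9 genes, these counts are no result about the group, and *Foxh1* alone is in both. The median log2 fold change of the 9 genes was -0.12 in BC and -0.08 in CB, against 0.01 for all tested genes in both crosses.

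The genes whose changes were nearest to those of *Foxh1* were named by the root mean square (RMS) difference of the log2 TPM changes over the 6 clones, among 10808 genes with a mean of at least 5 TPM. A gene with no change in any clone would have an RMS difference of 0.87. The measure depends on the size of a change as well as its direction, so no order of the other 8 genes was read from it. The 5 nearest genes were *Jade2* (RMS difference 0.19), *Slc35f2* (0.24), *Mrc2* (0.29), *Sema3f* (0.30) and *Ldoc1* (0.31), whose changes against the wt mean were negative in all 6 clones and most negative in ΔE3, as for *Foxh1*. They were picked by these same changes, so this likeness is no separate result. Some of the changes were very small, as for *Jade2* in ΔP2.1 (-0.006) and *Sema3f* in ΔE2.7 (-0.03).

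The rest of the pathway was followed as a list of 36 genes, which had been chosen with earlier results of these data known. Among 33 tested in BC, edgeR called none in either direction. An unadjusted p under 0.05 was found for 4 of them, against 1525 of 13805 genes in all. Estimates were lower for 20 and higher for 13, with a median log2 fold change of -0.12. DESeq2, with 1.88% of all genes called, called 2 as lower in BC, the target genes *T* and *Eomes*, both T-box factors of mesoderm formation. Among 35 tested in CB, edgeR called none. An unadjusted p under 0.05 was found for 6 of them, against 2832 of 13801 genes in all. Estimates were lower for 25 and higher for 10, with a median of -0.14. DESeq2 called 3 in CB, where it called 3.94% of all genes, 2 of them lower, among these *Foxa2* (an endoderm factor), and the ligand gene *Gdf1* higher. Among the largest BC decreases by estimate were those of the activin subunit gene *Inhba* (-1.20, SE 0.544) and *Fgf8* (-0.99, SE 0.343), and the largest increases in *Foxa2* (0.76, SE 0.327), the activin subunit gene *Inhbb* (0.35, SE 0.415) and the coreceptor gene *Cfc1* (0.33, SE 0.48). In CB the largest decreases were in the Nodal antagonist *Cer1* (-1.80, SE 1.20), *Foxa2* (-1.60, SE 0.486) and *Fgf8* (-0.97, SE 1.05), and the largest increases in *Inhbb* (1.31, SE 0.655), *Cfc1* (1.22, SE 0.928) and *Gdf1* (0.61, SE 0.147). None of these estimates on the log2 scale was called by edgeR. The *Foxa2* estimates of the crosses had opposite signs, and so did those of *Gdf1*, at -0.65 in BC (SE 0.231). *Gdf1* was below both wt replicates in all 3 BC clones and above them in all 3 CB clones. Some of these changes were at low levels. *Inhba* had a wt mean of 1.04 TPM in BC and 1.67 TPM in CB, near the 1 TPM needed to enter the tests. The CB wt mean of *Inhbb* was 0.942 TPM, and its highest CB clone reached 4.21 TPM. In CB, *Inhbb* was at 447% of the wt mean in ΔE2.5, 114% in ΔE2.7 and 144% in ΔP2.1. *Cfc1* was at 128%, 480% and 51.2% in the same order. Without ΔP2.1, edgeR called 6.76% of all tested genes in CB, 3 pathway genes among them, all lower, *Inhba* (-1.75), *Furin*, which encodes a protease that cuts Nodal precursors (-0.85), and *Foxa2* (-1.24). Without ΔE2.7, it called *Cer1* (-3.70) in the joint fit of both crosses, the 1 gene called there (0.00701% of genes).

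The target genes of the pathway split the CB clones in the way *Lefty1* did. In ΔE2.5 and ΔP2.1, all 9 listed targets were below both wt replicates, with median log2 changes of -1.72 and -2.18, where 54.0% and 56.2% of all tested genes were below. In ΔE2.7, 6 of the 9 were above both wt replicates, with a median of 0.53, where 36.1% of all tested genes were above. *T* (brachyury) was at 119 and 117 TPM in CB wt, with ΔE2.5 at 35.2, ΔE2.7 at 196 and ΔP2.1 at 26.0 TPM. *Fgf8* was at 83.6 and 87.1 TPM in wt, with ΔE2.5 at 11.2, ΔE2.7 at 102 and ΔP2.1 at 9.63 TPM. *Eomes* was at 32.0 TPM in both wt replicates, with ΔE2.5 at 13.4, ΔE2.7 at 46.9 and ΔP2.1 at 14.4 TPM. The 6 genes with this split were *Lhx1*, *Gsc*, *Eomes*, *Mixl1*, *T* and *Fgf8*, and *Nodal* and *Lefty1* had it among the 9 genes of the axis. Of the 26 other pathway genes tested, 3 had this split, *Acvr1b*, *Fst* and *Tgif1*. Of all genes tested in CB, 5.48% had it. The split was chosen after the values were seen, and 1 sample stands for each clone.

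*Cer1*, another secreted inhibitor induced by Nodal, was at 13.8 and 12.6 TPM in CB wt, with ΔE2.5 at 0.52, ΔE2.7 at 9.47 and ΔP2.1 at 0.65 TPM. The activin inhibitor *Fst* was at 31.9 and 33.4 TPM in CB wt, with ΔE2.5 at 18.1, ΔE2.7 at 51.5 and ΔP2.1 at 18.2 TPM. Both were thus low in the clones that were low for the targets. In BC, 7, 6 and 6 of the 8 tested targets were below both wt replicates in ΔE1, ΔE3 and ΔP4, against 37.7%, 41.2% and 29.9% of all tested genes, and their levels were low. There, *T* was at 8.66 and 7.89 TPM in wt, with ΔE1 at 5.38, ΔE3 at 3.54 and ΔP4 at 4.14 TPM, and *Fgf8* was at 3.34 and 4.52 TPM in wt and between 1.47 and 2.83 TPM in the clones.

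The type I receptor gene *Acvr1b* was between 15.6 and 20.7 TPM in the 5 male CB samples and between 17.6 TPM in wt replicate 2 and 28.1 TPM in ΔP4 in male BC, and *Acvr2a* and *Acvr2b* had log2 fold changes between -0.24 and 0.11 in both crosses. *Acvr1c* was at most at 0.0175 TPM in each of the 12 samples and was not tested. *Skil*, a negative regulator of SMAD activity, was at 134 and 128 TPM in BC wt, with ΔE1 at 124, ΔE3 at 66.9 and ΔP4 at 90.3 TPM. In CB it was at 115% of the wt mean in ΔE2.5, 77.9% in ΔE2.7 and 103% in ΔP2.1.

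**Figure D3:**
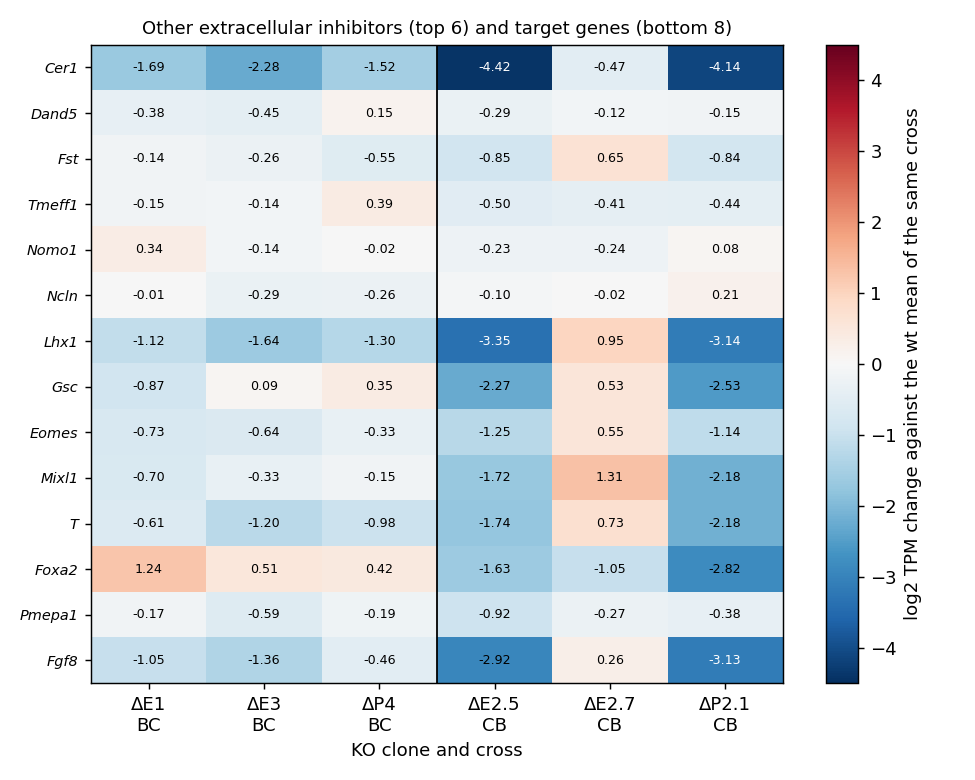
Log2 change, on log2(TPM + 0.1), of 6 further listed inhibitors (top) and 8 of the 9 target genes (bottom) in each KO clone. Each change is against the wt mean of the same cross, coloured from blue (lower) to red (higher). The columns of ΔE2.5 and ΔP2.1 are negative for all 8 targets shown, and the column of ΔE2.7 is positive for 6 of them.

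Markers of cell state and of other cells were read in the same samples. The ES cell markers *Pou5f1*, *Nanog*, *Sox2*, *Zfp42* and *Esrrb* were well expressed in each sample, with sums between 3153 and 7629 TPM, and *Pou5f1* was the most abundant of them, between 2071 and 3787 TPM. In BC, *Nanog*, *Zfp42* and *Esrrb* were above both wt replicates in each clone, from 142% to 223%, 143% to 177% and 137% to 229% of the wt mean. Of all tested genes, 20.9% were above both in each BC clone. *Pou5f1* was below both in ΔE1 (93.5%) and ΔP4 (78.6%) and above in ΔE3 (108%), and *Sox2* was above in ΔE1 (123%) and between them in ΔE3 and ΔP4. In CB, *Pou5f1* (109% to 124%) and *Sox2* (129% to 168%) were above both wt replicates in each clone, as were 14.7% of all tested genes. *Nanog* was below both wt replicates in ΔE2.5 (60.7% of the wt mean) and ΔP2.1 (74.1%) and above them in ΔE2.7 (140%). *Zfp42* was at 95.9%, 142% and 192% and *Esrrb* at 95.9%, 131% and 97.2% of the wt mean in ΔE2.5, ΔE2.7 and ΔP2.1. The 4 markers of primed epiblast (*Fgf5*, *Otx2*, *Pou3f1* and *Dnmt3b*) were all below both wt replicates in each BC clone, as were 10.9% of all tested genes. The sum of the 4 markers was 566 and 563 TPM in BC wt, with ΔE1 at 411, ΔE3 at 191 and ΔP4 at 315 TPM. *Dnmt3b*, the most abundant of them, was at 394 and 386 TPM in BC wt, with ΔE1 at 273, ΔE3 at 142 and ΔP4 at 194 TPM. In CB this sum was 823 and 815 TPM in wt, with ΔE2.5 at 887, ΔE2.7 at 564 and ΔP2.1 at 899 TPM. The 4 markers did not move together in CB. In ΔE2.7, *Dnmt3b* (323 TPM) and *Pou3f1* (87.7 TPM) were below both wt replicates, *Fgf5* (94.3 TPM) was between them and *Otx2* (59.3 TPM) above. In ΔE2.5, *Fgf5* (56.7 TPM) was below both and the other 3 were above. In ΔP2.1, *Fgf5* (45.2 TPM) and *Pou3f1* (80.8 TPM) were below both, and *Dnmt3b* and *Otx2* were above. The part of cell state in the levels of the 9 genes was not tested.

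Feeder fibroblast markers also moved between CB samples. The sum over 9 of them was 104 and 96.6 TPM in CB wt, with ΔE2.5 at 38.0, ΔE2.7 at 48.6 and ΔP2.1 at 147 TPM, mainly from *Col1a1* at 56.3 and 52.1 TPM in wt, with ΔE2.5 at 7.54, ΔE2.7 at 19.9 and ΔP2.1 at 102 TPM. The higher sum of ΔP2.1 came from *Col1a1* and *Col3a1* (173% of the wt mean). Of the 8 markers tested, 4 were below both wt replicates and 2 above in ΔP2.1, with a median log2 change of -0.08, whereas 7 were below in ΔE2.5 (median -2.10) and 7 in ΔE2.7 (-1.13). Of all tested genes, 56.2% were below both wt replicates in ΔP2.1 and in ΔE2.7, and 54.0% in ΔE2.5. The part of feeder cells in the levels of the 9 genes was not tested. In BC the sum was 42.6 and 39.4 TPM in wt and between 22.5 TPM in ΔE3 and 31.0 TPM in ΔE1 among the clones. *Lum* was at most at 0.464 TPM and listed at 0 in 1 female sample. Primitive endoderm markers summed to between 16.8 and 38.8 TPM over all samples. *Dab2* was the most abundant, between 6.33 and 29.5 TPM, and *Sox17* reached at most 1.28 TPM and *Pdgfra* 1.20 TPM. Of 6 tested in CB, 5 were below both wt replicates in ΔE2.5, 3 in ΔE2.7 and 6 in ΔP2.1. Their median log2 changes were -0.35, -0.02 and -0.61. Of 5 tested in BC, 4 were above both wt replicates in ΔE1, 4 in ΔE3 and 2 in ΔP4. There, 44%, 45% and 55.5% of all tested genes were above. In bulk samples, fewer cells of a type and less RNA per cell cannot be told apart.

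Alleles were compared with fragments that hold a BL6 or a *cast* SNP. *Foxh1* had 0 such fragments in each sample, so its alleles could not be followed. The other 8 genes could. In BC, the Lefty genes were low on both alleles of the exonic clones. For *Lefty2*, the log2 change of the BL6 allele was -1.49 in ΔE1, -3.13 in ΔE3 and -0.06 in ΔP4, and that of the *cast* allele -1.56, -3.39 and 0.05 in the same order. For *Lefty1* the BL6 allele was at -0.99, -2.66 and -0.04 and the *cast* allele at -1.02, -2.95 and -0.07. The alleles of a clone thus differed far less than the clones did. In CB, the BL6 allele of *Lefty2* was at -1.54 (ΔE2.5), -0.41 (ΔE2.7) and -1.75 (ΔP2.1) and the *cast* allele at -2.43, 0.22 and -2.06.

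In the edgeR test of each allele, none of the 8 genes was called, against 0.034% of genes for the BL6 allele in BC and 0% for the *cast* allele in BC and for each allele in CB, where 874, 1369 (BL6) and 1569 (*cast*) genes had an unadjusted p under 0.05. The log2 fold change in BC was -0.94 for the BL6 allele (SE 0.582) and -0.96 for the *cast* allele (SE 0.596) of *Lefty1*, and -1.14 (SE 0.681) and -1.07 (SE 0.701) for those of *Lefty2*. In CB it was -1.05 for the BL6 allele (SE 0.398) and -0.86 for the *cast* allele (SE 0.75) of *Lefty2*. None of the 8 was called for a KO effect that differed between its alleles, against 0.0164% of genes in BC and 0% in CB, where 348 had an unadjusted p under 0.05. The smallest unadjusted p among them in BC was 0.00267, for *Tdgf1* (difference -0.22 on the log2 scale, SE 0.0482, adjusted p = 0.869, edgeR).

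The alleles of chromosome 1 were also unequal between clones. Among genes within 5 Mb of the Lefty genes, the median BL6 share was 52.3% and 52.2% in CB wt, 68.5% in ΔE2.5, 34.2% in ΔE2.7 and 49.4% in ΔP2.1. The BL6 share of *Lefty1* moved with it, at 57.3% and 57.0% in CB wt, 71.2% in ΔE2.5, 38.9% in ΔE2.7 and 56.8% in ΔP2.1. In ΔE2.7, the *cast* allele of *Lefty1* was 1.22 higher on the log2 scale than in wt and the BL6 allele 0.21 higher. The male BC samples, wt included, had a local BL6 share between 66.8% and 69.4%, and the female BC samples 51.9% and 49.9%.

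*Lefty2* had more BL6 than *cast* fragments in each of the 12 samples, with a share between 66.1% and 87.3%. Its share was above the median of its neighbours in each sample. In male wt of both crosses, with strain and parent as terms, the log2 ratio of the BL6 to the *cast* allele was 1.83 for *Lefty2* (SE 0.0276), -0.65 for *Smad3* (SE 0.0576) and -0.67 for *Smad7* (SE 0.0779). These 3 of the 8 genes were called, against 31.2% of genes. *Lefty1* at 0.44 (SE 0.0292) and *Gdf3* at 0.25 (SE 0.0391) were below 1.5-fold. The share of *Lefty1* was below the median of its neighbours in male BC wt (60.8% and 61.6% against 67.7% and 68.4%) and above it in CB wt (57.3% and 57.0% against 52.3% and 52.2%). *Smad3* had a BL6 share between 35.7% and 44.0% in all 12 samples, and its neighbours between 47.9% and 53.0%. The strain ratio is measured within each sample and averaged over the crosses. The small SEs cover the spread between replicates of a cross. *Smad7* had more BL6 than *cast* fragments in male BC wt (53.6% and 56.6%) and fewer in CB wt (25.7% and 28.0%). Its strain ratio is thus a mean of crosses that differed, and does not hold for each of them. The Lefty ratios were not corrected for the share of their neighbours, which was higher in male BC wt than in CB wt.

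The parental ratio is the difference in BL6 share between the male wt cells of the 2 crosses, so parent of origin and any other difference between these cells cannot be told apart. By this ratio, 2 of the 8 genes were called, *Tdgf1* with a log2 ratio of the maternal to the paternal allele of 0.61 (SE 0.0236) and *Smad7* with 0.80 (SE 0.0774), against 10.9% of genes. *Nodal* at 0.12 (SE 0.0372) was below 1.5-fold. The other samples did not all have the shares of the wt samples of their cross. *Tdgf1* had a BL6 share of 62.4% and 62.9% in male BC wt, 40.1% and 39.0% in CB wt, 39.9% in ΔE2.5 and 40.4% in ΔE2.7, but 69.8% in the CB clone ΔP2.1 and 49.97% and 49.89% in female BC wt. *Smad7* had 53.6% and 56.6% in male BC wt, 25.7% and 28.0% in CB wt, 27.7% in ΔE2.5 and 28.9% in ΔE2.7, but 56.1% in ΔP2.1 and 29.5% and 30.5% in female BC wt. ΔP2.1 was thus on the side of the male BC samples and female BC near CB wt for *Smad7*, although the labels give a *cast* mother for ΔP2.1 and a BL6 mother for the female cells. The single X of a male comes from the mother, and 9.05% of X-linked SNP fragments in ΔP2.1 were BL6, close to 8.997% and 8.958% in CB wt and far from 99.3% and 99.2% in male BC wt, as its label says. Female cells have both X chromosomes (50.8% and 50.3% BL6), so their cross could not be checked in this way. Neighbours of *Smad7* within 5 Mb had a median BL6 share of 44.8% and 44.0% in CB wt and 51.4% in ΔP2.1, and those of *Tdgf1* 44.6% and 45.3% in CB wt and 51.1% in ΔP2.1.

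In the test of KO in CB, the BL6 allele of *Tdgf1* had a log2 fold change of 0.82 (SE 0.587), which rests on ΔP2.1, since it was 0.00 without that clone. The allele difference in KO effect in CB was likewise 0.63 for *Tdgf1* (SE 0.6) and 0.69 for *Smad7* (SE 0.582), and 0.06 and 0.13 without ΔP2.1. In ΔP2.1 the BL6 allele of *Tdgf1* was 1.66 higher than in wt on the log2 scale and that of *Smad7* 1.16 higher, while the *cast* alleles were at -0.21 and -0.69.

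**Figure D4:**
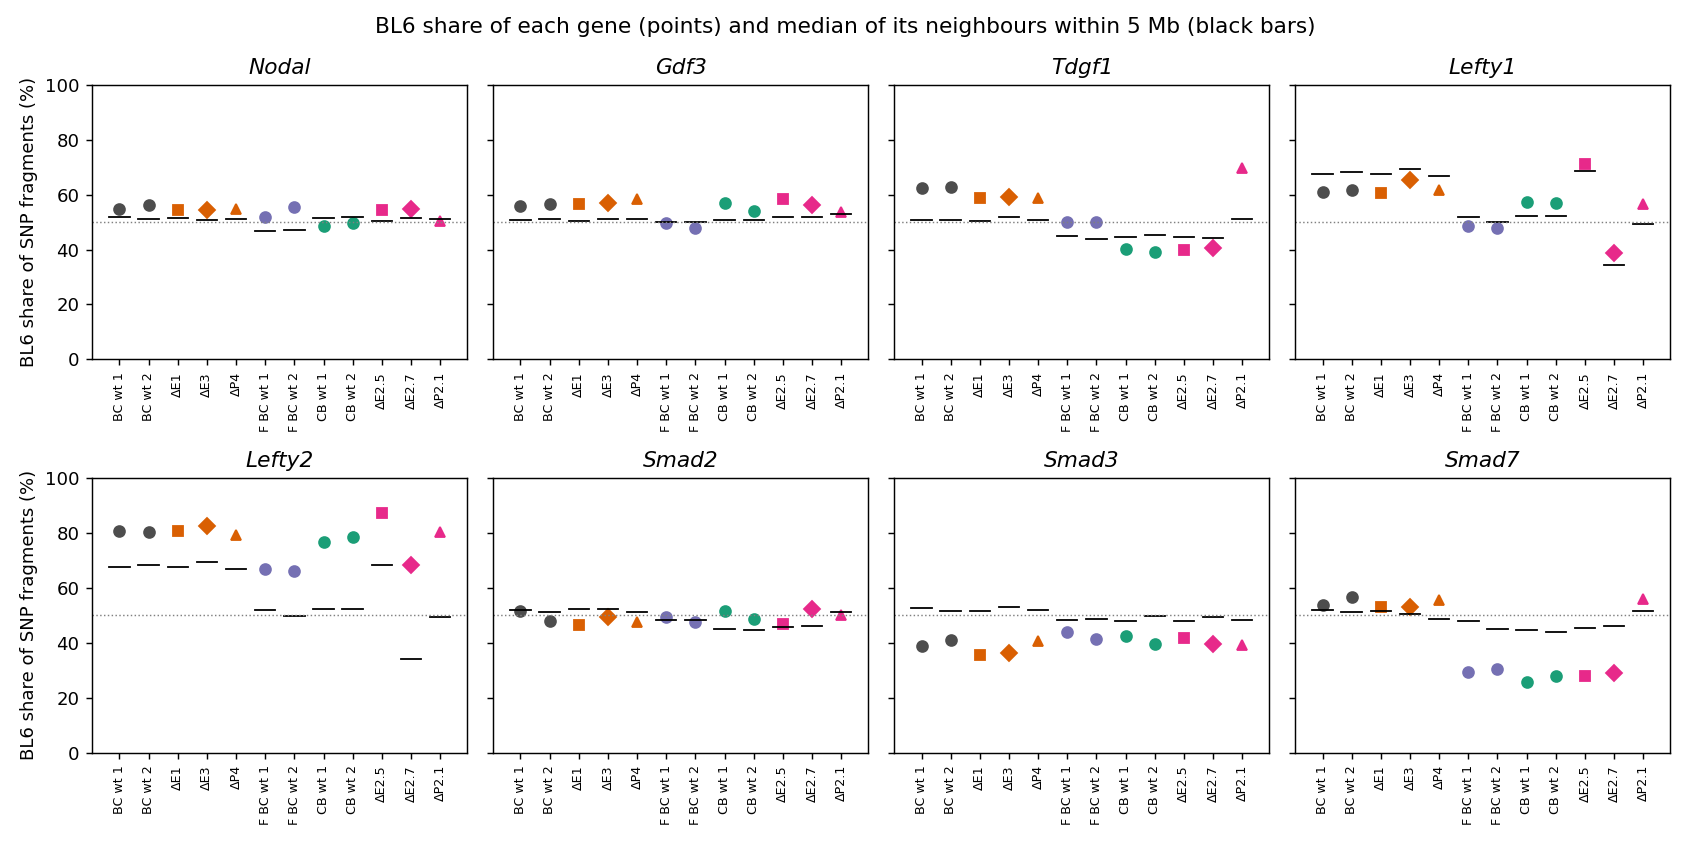
Share of BL6 among SNP fragments (vertical axis, percent) of 8 genes in each of the 12 samples (horizontal axis, F for female). Points are the gene itself, coloured by group, black bars are the median of its neighbours within 5 Mb, and the dotted line marks 50%. *Lefty2* lies above its bar in each sample, and the ΔP2.1 points of *Tdgf1* and *Smad7* depart from the other CB samples.

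Female BC wt cells, which have a second X chromosome, were compared with male BC wt cells. *Foxh1* was at 76.9 and 77.8 TPM in female samples against 141 and 132 TPM in male ones, a log2 fold change of -0.87 (SE 0.172, adjusted p = 0.00178, edgeR). *Nodal* was at 54.9 and 57.0 TPM against 108 and 106 TPM (-0.98, SE 0.279, adjusted p = 0.0125, edgeR). *Gdf3* was at 72.9 and 74.9 TPM against 121 and 127 TPM (-0.80, SE 0.164, adjusted p = 0.00223, edgeR). *Smad7* was at 67.4 and 71.5 TPM against 38.0 and 31.5 TPM (0.95, SE 0.25, adjusted p = 0.00847, edgeR). These 4 genes passed the adjusted p but not the 2-fold threshold of this comparison, so none of the 9 was called, against 23.4% of genes. At 1.5-fold the 4 were called, against 39.6% of genes.

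*Lefty1* was at 109 and 121 TPM in female cells against 226 and 236 TPM in male cells (log2 fold change -1.06, SE 0.656, adjusted p = 0.196, edgeR). *Lefty2* went the other way, at 221 and 214 TPM against 118 TPM in both male replicates (0.83, SE 0.763, adjusted p = 0.379, edgeR). The KO clones shared the estimate of the spread in this fit. With only the 4 samples compared, *Lefty1* was called with a log2 fold change of -1.07 (SE 0.077) and *Lefty2* stayed below 2-fold, with 24.5% of all genes called. The median log2 change of chromosome 1 was -0.59 in this comparison. The female cells had 0.54 and 0.45 TPM of *Fgf5* against 16.4 and 17.0 TPM in male cells, and 926 and 880 TPM of *Nanog* against 201 and 228 TPM. Feeder markers differed too, with sums of 79.7 and 79.0 TPM in female cells against 42.6 and 39.4 TPM in male cells. *Thy1*, the most abundant of them, was at 67.4 and 66.2 against 20.5 and 19.6 TPM. Of the 6 feeder markers tested, edgeR called *Thy1* higher (log2 fold change 1.68) and *Col1a2* (-2.41) and *Col3a1* (-4.56) lower, against 23.4% of genes. The part of cell state and of feeder cells in the female values was not tested. *Kdm6a* was at 65.0 TPM in both female replicates.

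Between the male wt lines, none of the 9 genes was called in CB against BC, where 28.8% of genes were. *Foxh1* was 0.31 higher in CB on the log2 scale (SE 0.167, adjusted p = 0.162, edgeR), *Nodal* 0.48 higher (SE 0.28, adjusted p = 0.194, edgeR) and *Lefty2* 1.08 higher (SE 0.764, adjusted p = 0.279, edgeR). The median log2 change of chromosome 1, where the Lefty genes lie, was -0.49 in this comparison. The column of counts matters here. For *Lefty2*, the diploid fragments were 77.2% and 76.5% of those mapped to the BL6 genome in male BC wt, and 98.6% in both CB wt replicates. Counted on the BL6 genome alone, *Lefty2* was 0.75 higher in CB. With only the 4 wt samples compared, *Lefty2* was called at 1.10, with 34.5% of all genes called.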

How the data were processed

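RNA-seq of 12 samples in 5 groups was used. The deposited values are estimated counts of fragments per gene: all diploid fragments, fragments mapped to the BL6 or *cast* genome, and fragments holding a BL6 or *cast* SNP. Per the labels and the study's methods, the authors estimated diploid expression from 75-base single-end reads with TopHat, and mapped reads for the allelic counts with Bowtie2 2.2.5 to the BL6 (mm10) genome and a *cast* version of it made with SNPs; the counting tool is not given in the sources used here. Counts were rounded. TPM used GENCODE transcript lengths (23310 of 24346 genes), and genes at 1 TPM or more entered the tests. Tests used edgeR 4.0.16 (quasi-likelihood, TMM) in R 4.3.3, with DESeq2 1.42.0 as an alternative. They were run on simulated data in which all KO clones shared the same changes, unlike the clones here. That run cannot show how the tests perform on clones that differ. Calls needed an adjusted p under 0.05 and 1.5-fold, or 2-fold between the sexes. Replicate pairs differed beyond counting noise. The 9 genes and all lists were chosen with earlier results of these data known. Named genes were the 9, the 3 largest pathway estimates in each direction and the 5 genes nearest to *Foxh1*. One item is not reported here. Other genes were chosen after their values were seen. Alternatives left out samples, summed ΔE1 and ΔE3, changed normalization, filter, tool or count column, or added a replicate block.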

Additional observations from a re-analysis of the deposited data

How the results depend on the processing

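Each comparison rests on 2 wt samples and at most 3 clones per cross, so 1 clone can decide a value. Of the counts of called genes among the 9 and in the pathway list, 128 stayed within 1.5 times under the alternatives, most of them at 0, and 14 moved. DESeq2 called 1 of the 9 genes in BC, over both crosses and in the interaction, *Foxh1* each time, and sharing the spread over all 12 samples also called 1 in BC. DESeq2 called 2 pathway genes in BC and 3 in CB, and leaving out samples, added after seeing the data, gave 0 to 3 in CB, with 3 without ΔP2.1, where 927 of all genes were called (0 with all clones). Over all genes, DESeq2 called 260 in BC (edgeR 4), 501 in CB (edgeR 0), 82 over both crosses (edgeR 0) and 554 in the interaction (edgeR 9), and edgeR with all 12 samples sharing the spread called 54 in BC and 54 in CB. With ΔE1 and ΔE3 summed as 1 sample of their editing event, edgeR called 6 of all tested genes in BC. Leaving out samples, edgeR called 1 to 4 genes in BC and 0 to 927 in CB. It called 0 to 22 over both crosses and 3 to 306 in the interaction. The highest counts for CB and the interaction were without ΔP2.1. For female against male, 1 gene was called with only the 4 samples and with a replicate block (*Lefty1* both times), 4 at 1.5-fold, and 0 to 1 when a sample was left out, *Smad7* at 1.08 without male BC wt replicate 1 and at 1.00 without female BC wt replicate 1, where 2921 and 2940 of all genes were called. For CB against BC, 1 was called with only the 4 samples and with the replicate block (*Lefty2*, 1.08 with the block). With the block, 3456 and 4828 of all genes were called in these comparisons. Same-numbered wt replicates were treated as unpaired in the main tests, and whether they are paired is not known. Their differences between replicates, over 9405 genes, correlated at 0.207 between male and female BC wt. The correlation was 0.209 between male BC and male CB wt and 0.0253 between female BC and male CB wt. *Lefty1* in CB (0.08) turned to -0.53 without ΔE2.7 and to -0.25 with the chromosome median subtracted, with a range of -0.53 to 0.36 over left-out samples. Over left-out samples, *Foxh1* ranged from -1.27 to -0.98 (BC) and -0.33 to -0.26 (CB), *Lefty1* from -1.63 to -0.54 (BC), and *Lefty2* from -2.19 to -0.66 (BC) and -1.71 to -0.69 (CB). The exonic clones alone gave -0.80 for *Foxh1* over both crosses and the promoter clones -0.56, neither called. The causes were not tested.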
